A study of Caenorhabditis elegans with 2 samples.

Results

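Summits of tagged EKL-4 were examined at genes that start shortly after the end of another gene on the same strand, a spacing like that inside worm operons. A summit is the position of the highest signal in a peak. The summits were those of the deposited conservative peak list on the 5 autosomes that lay within 500 bp of the nearest 5′ end of a protein-coding transcript, where that gene began 1 to 500 bp after the 3′ end of another protein-coding gene of the same strand. There were 335 such summits, of 2482 in the whole list, 2183 on autosomes and 1075 near an autosomal 5′ end. They lay at 304 of the 3347 autosomal genes with this spacing, called operon-like genes here, which was 9.08% (95% Wilson interval 8.16 to 10.1). Among all 17242 autosomal protein-coding genes, 5.76% were the nearest gene of a conservative summit. In the list of replicate 1 alone 179 operon-like genes had a summit (5.35%), and in that of replicate 2 alone 230 had one (6.87%). The data come from chromatin immunoprecipitation and sequencing on whole young adult Caenorhabditis elegans, a nematode, collected at 65 h after synchronisation by starvation as first-stage larvae. In all animals the ekl-4 gene, on chromosome I, had been edited by CRISPR so that it adds TY1, EGFP and 3xFLAG tags to the protein, and an antibody against GFP was used on chromatin sonicated to 200 to 800 bp. There were 2 biological replicates of this 1 group and no other condition, so nothing below compares conditions, and whole animals mix all tissues. Operons themselves were not looked up: the rule uses spacing only, and whether these genes share a transcript was not measured.

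In C. elegans many neighbouring genes of the same strand are transcribed from a shared promoter as an operon. The long transcript is cut into single mRNAs by 3′ end formation of each gene and trans-splicing of a spliced leader to the next, and the stretch between such genes is short. A 5′ end inside an operon is therefore usually a trans-splice site and not a place where transcription begins, while widely spaced genes, and some genes within operons, have a promoter of their own. EKL-4 resembles DMAP1, which in other animals belongs to the NuA4/TIP60 histone acetyltransferase and to remodelers of the SWR1 type that place a histone H2A variant. Both kinds of complex are known for acting at promoters.

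The sequences between the genes show how differently the summits were placed. The first set are 4 of the 5 gaps of at most 300 bp that held the strongest summits in the gap itself on chromosomes II to V. They are read on the strand of the genes, from the base after the 3′ end of the gene before to the base before the 5′ end. The RefSeq sequence of WBcel235 was used, and the capitals mark the bases within 10 bp of the summit. The gap before Y39B6A.43 is chrV:18967830-18967904 (minus strand), that before rpi-2 is chrIV:1711128-1711261 (plus), that before C34C12.8 is chrIII:3460112-3460405 (plus), and that before fbxl-2, an F-box protein gene, is chrIII:4757022-4757259 (plus).
Y39B6A.43: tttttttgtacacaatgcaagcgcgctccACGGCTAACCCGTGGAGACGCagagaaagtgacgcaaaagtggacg
rpi-2: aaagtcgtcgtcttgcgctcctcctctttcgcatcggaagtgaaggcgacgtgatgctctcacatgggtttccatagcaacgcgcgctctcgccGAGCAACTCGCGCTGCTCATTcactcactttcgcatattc
C34C12.8: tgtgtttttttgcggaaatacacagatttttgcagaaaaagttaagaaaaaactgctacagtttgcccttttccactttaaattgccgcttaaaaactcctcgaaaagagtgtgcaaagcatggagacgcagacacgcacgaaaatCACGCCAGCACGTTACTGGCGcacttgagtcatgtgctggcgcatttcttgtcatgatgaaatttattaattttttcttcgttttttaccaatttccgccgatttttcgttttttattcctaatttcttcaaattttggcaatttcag
fbxl-2: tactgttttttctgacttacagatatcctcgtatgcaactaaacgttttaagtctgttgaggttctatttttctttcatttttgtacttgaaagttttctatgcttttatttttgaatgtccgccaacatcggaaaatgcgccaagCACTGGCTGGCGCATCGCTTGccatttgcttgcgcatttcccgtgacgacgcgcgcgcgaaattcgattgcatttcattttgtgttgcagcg
The word GGCGCAT occurs as printed in the gaps of C34C12.8 and fbxl-2, and is counted over all summits further on. Its reverse complement, ATGCGCC, occurs in the gap of fbxl-2 and also in that of thoc-7, printed below, whose summit lay inside the gene. The second set are short gaps whose summit lay past them, inside the next gene. Here the capitals mark the last 6 bases before the 5′ end, where a trans-spliced gene has its acceptor, AG. The gaps are chrIV:653422-653479 (minus) between rpl-15 and K11H12.1, chrV:15000542-15000650 (minus) between fib-1, the fibrillarin gene, and rps-16, chrIII:6462857-6462962 (minus) between the dynein light chain gene dlc-1 and T26A5.8, chrIV:13882619-13882733 (plus) between rpl-29 and the THO complex gene thoc-7, and chrIV:15039552-15039615 (plus) between the elongation factor gene eef-1B.2 and hrpu-1.
K11H12.1: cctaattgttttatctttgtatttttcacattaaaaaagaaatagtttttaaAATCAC
rps-16: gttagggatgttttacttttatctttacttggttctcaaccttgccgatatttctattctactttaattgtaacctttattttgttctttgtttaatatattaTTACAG
T26A5.8: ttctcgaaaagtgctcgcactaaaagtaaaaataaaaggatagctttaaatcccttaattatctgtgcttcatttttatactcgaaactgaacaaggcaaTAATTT
thoc-7: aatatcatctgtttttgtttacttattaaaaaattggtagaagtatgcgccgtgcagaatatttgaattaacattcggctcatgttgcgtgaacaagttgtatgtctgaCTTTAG
hrpu-1: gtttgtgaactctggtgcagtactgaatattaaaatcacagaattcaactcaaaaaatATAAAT
The gaps of rps-16 and thoc-7 end in AG, and those of K11H12.1, T26A5.8 and hrpu-1 do not. The summit lay 40, 105, 157 and 157 bp after the 3′ end of the gene before in the first set, in the order printed, and 141, 168, 199, 193 and 135 bp after it in the second.

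Where the summit fell relative to the next gene changed with the spacing, while its distance from the end of the gene before changed less. Of the 335 summits, 160 lay in the gap between the genes (47.8%, interval 42.5 to 53.1), 152 inside the gene (45.4%) and 23 inside the gene before (6.87%). At spacings of 51 to 150 bp, the usual range within operons, 109 of 143 summits lay inside the gene (76.2%). At spacings over 250 bp, 106 of 120 lay in the gap (88.3%). A longer gap also takes up more of the window that was searched, so these shares depend in part on the room each stretch offers. The median position relative to the 5′ end moved from +74 bp at 51 to 100 bp of spacing (positive is inside the gene) to +61.5 bp over 100 and up to 150 bp, -54 bp over 150 and up to 250 bp, and -172.5 bp over 250 bp. Relative to the 3′ end of the gene before, the medians of the same classes were 158, 172.5, 157 and 177.5 bp. The 19 summits at spacings of 1 to 50 bp stood apart, with a median of 71 bp after that 3′ end. Over all 335 summits the median was 166 bp, with quartiles of 104 and 259, and 173 (51.6%) lay 100 to 250 bp after the 3′ end. Across summits, Spearman's rho of spacing was -0.56 with the distance from the 5′ end and 0.22 with the distance from the 3′ end. Both distances are tied to spacing by the window and share its ends, so these values describe the plotted cloud and no more.

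**Figure D1:**
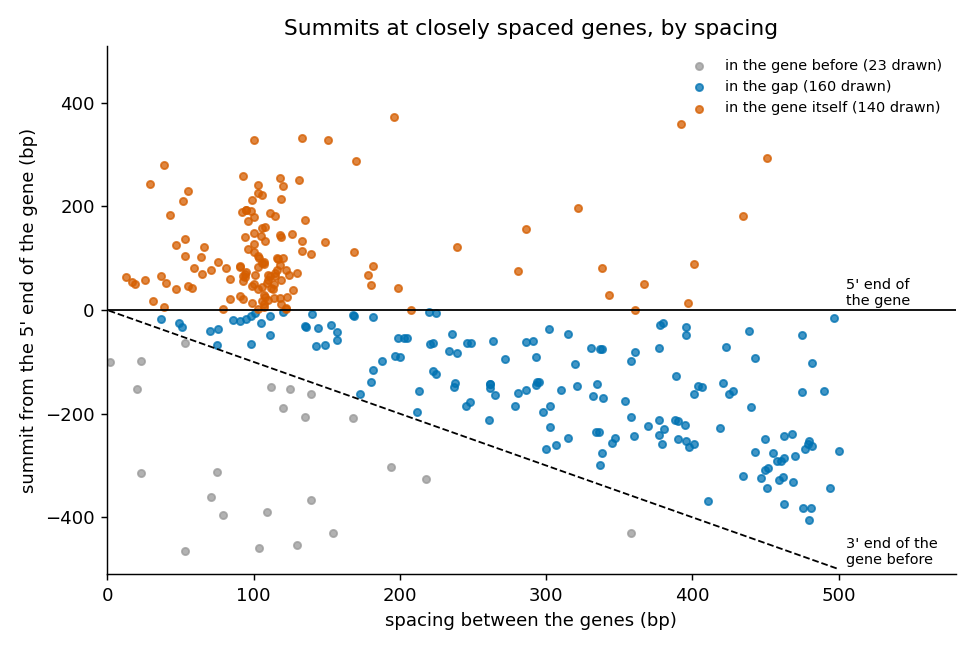
Each point is a summit, with the spacing between the genes in bp on the x axis and its distance from the 5′ end of the gene in bp on the y axis (negative is upstream). The solid line is the 5′ end and the dashed line the 3′ end of the gene before. At spacings of 51 to 150 bp 105 of the 139 points drawn (75.5%) lie above the solid line, and over 250 bp 106 of 119 (89.1%) lie between the lines. The 12 summits over 500 bp from the outermost 5′ end, near an inner transcript start, are not drawn.

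In each replicate's own list, too, most summits at short spacings lay inside the gene and most at long spacings in the gap. In the list of replicate 1, 63.6% of summits at spacings of 51 to 150 bp lay inside the gene and 82.8% of those over 250 bp lay in the gap. In that of replicate 2 the shares were 76.5% and 82.6%. Over all spacings the order was not shared: replicate 1 had 104 summits in the gap and 89 inside the gene, and replicate 2 had 111 and 116. The median distance from the 3′ end of the gene before was 178 bp in replicate 1 and 160 bp in replicate 2. The replicates differed most in place at spacings over 150 and up to 250 bp. There, replicate 1 had 39.5% of summits in the gap and 48.8% inside the gene, with a median of -9 bp from the 5′ end. Replicate 2 had 63.9% and 30.6%, with a median of -55.5 bp. The place of summits in this class, and the inside share of the short spacings, therefore differed between the replicates. The counts in the gap in this class were small, 17 of 43 summits in replicate 1 and 23 of 36 in replicate 2. For the inside share at 51 to 150 bp the intervals overlap (51.6 to 74.2 and 67.2 to 83.8). Whether the differences exceed counting error was not tested.

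Bands of equal width after 3′ ends give every spacing class the same room. In the band from 100 to just under 250 bp after the 3′ end there were 5.55 summits per 100 ends where the next gene began 51 to 100 bp on, 6.83 where it began up to 150 bp on, 4.81 up to 250 bp and 5.12 up to 500 bp. In the next band of the same width, from 250 bp, the values were 1.97, 2.32, 0.535 and 2.17. In the band from 50 bp before the 3′ end to 99 bp after it they ran from 1.16 to 1.97. For these 4 classes the band from 100 bp thus held more summits than either neighbour, whether it covered the gap, the 5′ end or the coding part of the next gene. At spacings of 1 to 50 bp the order differed: the band up to 99 bp held 5.24 per 100 ends and that from 100 bp held 1.57. The 13916 3′ ends with no same-strand 5′ end within 500 bp after them also had their highest value in the band from 100 bp, at 2.00 per 100 ends, beside 1.22 and 1.13 in the neighbouring bands.

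**Figure D2:**
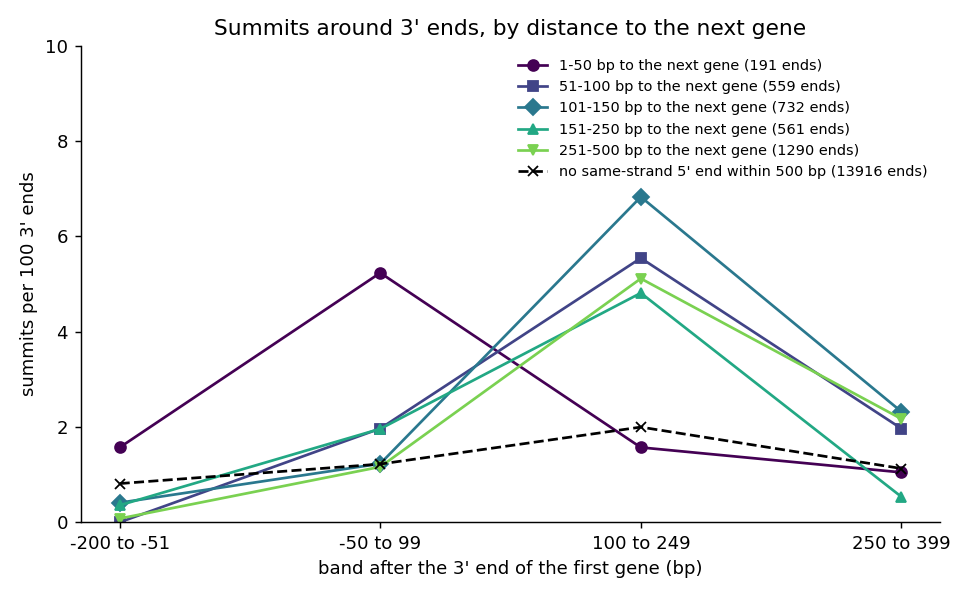
Conservative summits per 100 3′ ends (y axis) in 4 bands of equal width around the 3′ end of the first gene (x axis, bp). Lines stand for classes of distance to the next same-strand gene, and the dashed line for 3′ ends with none within 500 bp. All lines but that of 1 to 50 bp are highest in the band that begins at 100 bp, from 4.81 to 6.83 for the spaced pairs and 2.00 for the dashed line.

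The share of genes with a summit hardly moved with spacing in the conservative list. It was 9.42% at 1 to 50 bp (18 of 191 genes), 9.45% at 51 to 100 (53 of 561), 10.4% up to 150 (76 of 734), 8.17% up to 250 (46 of 563) and 8.55% up to 500 (111 of 1298), and the intervals of all 5 classes overlap. In the list of replicate 1 the share ran from 4.10% at 51 to 100 bp to 6.01% over 250 bp. In that of replicate 2 it ran from 5.70% at 51 to 100 bp to 9.95% at 1 to 50 bp, so the profile varied with the list. The strength of the summits was lowest at the middle spacings and highest at the longest. Their median signal, the authors' peak strength relative to control, in a unit the files do not state, was 103, 94.4, 97.99, 109 and 135 in these 5 classes, in the same order. The share of peaks that met a thresholded peak of both replicates was 52.6%, 25.4%, 26.2%, 47.2% and 54.2%, the first of these being 10 of 19 summits. By place, summits in the gap had a median signal of 120 and 51.9% were met in both replicates, against 99.98 and 32.2% for those inside the gene, and 91.6 and 21.7% for those inside the gene before. By annotation, 156 summits were intergenic (46.6%), 92 in coding exons (27.5%), 42 in introns, 25 in 5′ UTRs and 20 in 3′ UTRs.

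Set beside other gene starts, these summits had a lower median signal and more often lay inside the gene. Their median signal was 107 (quartiles 86.9 and 150), beside 118 for the 740 other autosomal summits at gene starts and 108 for all autosomal summits. Among those 740 it was 142 for the 229 summits between divergent gene pairs and 125 for the 305 summits upstream of genes that are neither divergent nor closely spaced. Of the 335, 137 met a peak of both replicates (40.9%, interval 35.8 to 46.2), which is near the 41.6% of all autosomal conservative peaks. It was 49.2% for the 740, with 61.6% for the divergent pairs and 51.5% for the other upstream summits. Both of these groups lie upstream by definition, and the operon-like summits in the gap, with 120 and 51.9%, were near the second. A further 30 met a peak of replicate 1 only, 69 of replicate 2 only and 99 of neither (29.6%). In the much longer ranked lists, 332 met a peak of replicate 1 and 334 one of replicate 2. Of the operon-like summits 40.9% lay downstream of the nearest transcript 5′ end, with the interval from 35.8 to 46.2, and of the 740 others 24.1% did (21.1 to 27.3). The median distance from the nearest 5′ end was -37 bp (quartiles -166 and 63.5) against -144.5 bp. These are descriptions of lists, since summits are not replicates.

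The signal was mostly higher in replicate 2. The median signal of the met peaks was 46.7 in replicate 1 and 66.1 in replicate 2, and 279 of the 331 summits met in both ranked lists were higher in replicate 2, with a median ratio of 1.40. Over all autosomal summits the ratio was 1.36. Spearman's rho between the replicates was 0.590 over these 331 and 0.615 over 2149 autosomal summits, as a description over peaks of the same 2 libraries. Summits that share a replicate peak share its value. Few lay in repeated sequence: 16 (4.78%) had over 10% of the 31-mers around them elsewhere in the genome, beside 18.9% of all autosomal summits. Among the 740 other summits at gene starts the share was 14.5%, with 7.42% between divergent pairs and 17.7% for the other upstream summits.

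**Figure D3:**
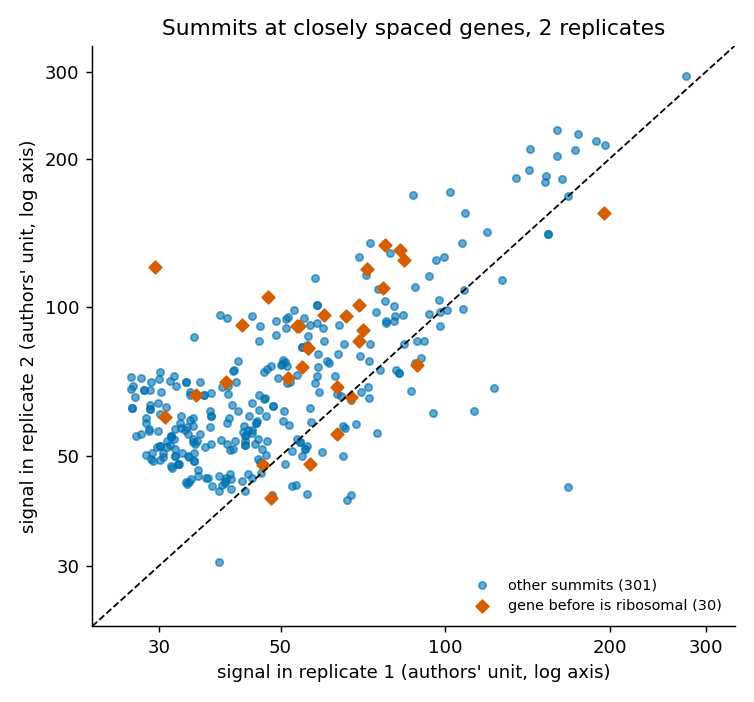
Signal of the peak met in the ranked list of replicate 1 (x axis) and replicate 2 (y axis), in the authors' unit on log axes, for the 331 summits with both. The dashed line marks equal values. Most points (279) lie above it, and the 30 summits after ribosomal protein genes (orange) span much of the range.

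The strongest of these summits mostly lay in wide gaps. All of the first 25 were met in both replicates, beside 40.9% of all 335. They were chosen by signal in a list that rests on both replicates, so this is no separate result. Of those 25, 19 lay in the gap, beside 47.8% of all 335, and 14 had a spacing over 250 bp, beside 35.8%. The highest signal was 570 (276 in replicate 1 and 294 in replicate 2), at mtcu-2, but its summit lay 466 bp upstream, in an intron of let-268, the gene before, and 50.3% of the 31-mers around it were repeated in the genome. Both replicates were high there, and its place within the whole conservative list was 19. It is the summit nearest the edge of the 500 bp window named here. The summit at C28A5.6, 501 bp inside the gene, fell just outside with a signal of 99.1. At the limit of spacing, ubl-5, a ubiquitin-like protein gene, was kept at 500 bp (104) and cacn-1 was left out at 501 bp (132).

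Next came ddp-1, a small mitochondrial import chaperone gene, then eelo-2, kel-3, Y39B6A.43 and eif-3.C, all but kel-3 with a summit in the gap. The summit before ddp-1, which follows the helix-loop-helix gene hlh-33 at 286 bp, had a signal of 416 (196 and 213 in replicates 1 and 2). That before eelo-2 had 410 (175 and 225). That before eif-3.C, a subunit gene of translation initiation factor eIF3 behind the beta-catenin gene sys-1, had 381 (173 and 208), at -258 bp. In all 3 the value of replicate 2 was the higher one. The summit between ant-1.1, an adenine nucleotide carrier gene, and kel-3 had 404 (160 and 228), and lay in the 3′ UTR of ant-1.1 at 41 bp before its end. The summit before Y39B6A.43 had 403 (189 and 217) in a gap of 75 bases.

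A further group followed between 327 and 364. It held cmtr-1, an mRNA cap methyltransferase gene (364, with 160 and 202 in the replicates), and bag-1, an Hsp70 cochaperone gene behind mei-2 (354, with 163 and 182). The summit before egl-30, the Gq alpha subunit gene, behind rpl-27 had 353, with 196 in replicate 1 and 155 in replicate 2, so that replicate 1 was the higher one there. The summit before rpi-2 had 352 (168 in each replicate). A snoRNA gene lay under the summit before Y75B12B.11 (352, with 143 and 209) and another 55 bp from that before cmtr-1, and what part they have in the signal was not tested. C34C12.8 had 339 (152 and 179) and tba-2, an alpha-tubulin gene behind the proteasome gene pbs-2, had 335 (153 and 185). The DnaJ gene dnj-9 had 330 (135 and 183), and icd-2, which encodes the alpha subunit of the nascent polypeptide-associated complex, had 327 (142 and 190).

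The remaining summits of the first 25 ranged from 221 to 293. The gap summits among them were at fbxl-2 (293), F48A11.4 (254), W03F8.4 behind the laminin gene lam-1 (252), the histone H4 gene his-37 (251.1), D2096.7 behind the nucleosome assembly gene nap-1 (237) and F36A2.7 (224). Those inside the gene were at F46F11.7, 20 bp past its 5′ end and behind the Y-box gene cey-2 (274), at K11H12.1 behind rpl-15 (224) and at the ribosomal stalk gene rla-1, 223 bp past its 5′ end (221). C56C10.7, which starts 2 bp after icd-1, the partner subunit gene of icd-2, had its summit in the 3′ UTR of icd-1 (243).

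A wide contrast lay in what the gene before encodes. Of the 33 genes that follow a cytosolic ribosomal protein gene at this spacing, 27 had a summit (81.8%, interval 65.6 to 91.4), beside 9.08% of all operon-like genes. In the list of replicate 1, 19 of the 33 had one, and in that of replicate 2, 25 had. This comparison was added after seeing the data. The 27 genes held 30 summits, 20 of them inside the gene, 9 in the gap and 1 in the gene before, with a median of 156.5 bp after the 3′ end of the ribosomal protein gene (quartiles 106.75 and 232.25). Of these 30, 21 were met in both replicates (70.0%), and their median signal was 148. The genes after them have varied roles. Besides egl-30 and K11H12.1, summits lay 102 bp after rpl-26, before the mRNA 3′ end processing gene suf-1 (208, with 72.03 and 120 in replicates 1 and 2), and 241 bp after rpl-43, in the exonuclease gene xrn-2 (205, with 82.7 and 130). The summit in agt-1 lay 76 bp after rla-2 (188, with 69.6 and 100.9). In all 3 the value of replicate 2 was the higher one. The summit before the innexin gene inx-7 lay in the gap, 179 bp after rps-25 (178, with 88.8 and 76.3), and there replicate 1 gave the higher value. The summit in thoc-7 lay 193 bp after rpl-29 (184, with 76.9 and 110), and that in the cytochrome c gene cyc-2.1 lay 176 bp after rpl-20 (155, with 29.4 and 121). The replicates differed most at cyc-2.1, where the summit was in the thresholded list of replicate 2 only. The 6 genes without a summit were gly-10 behind rpl-18, tct-1 behind rla-0, D1007.10 behind rpl-24.1, C53H9.4 behind rpl-27, M01F1.8 behind rpl-16 and trpp-11 behind rps-29.

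Such summits were also found after ribosomal protein genes with no close neighbour. From the 3′ end to the far side of the last of the bands above, a summit was found at 26 of 31 ribosomal protein genes with a same-strand gene within 500 bp (83.9%) and at 38 of 48 without one (79.2%, interval 65.7 to 88.3). Over all autosomal protein-coding genes the shares were 8.15% and 3.94%. Proteasome genes came next among the lists. Of the 12 operon-like genes behind one, 8 had a summit (66.7%, interval 39.1 to 86.2), 6 in the list of replicate 1 and 5 in that of replicate 2. Besides tba-2 they included the mitochondrial ribosomal protein gene mrpl-32 behind rpn-3 (154, with 64.1 and 91.9 in the replicates) and chp-1 behind pas-3 (127, with 46.7 and 74.1). In both, replicate 2 gave the higher value. The 4 without a summit were dhs-22, T22D1.8, B0205.8 and let-767. By the count from the 3′ end used above, 9 of 12 proteasome genes with a close same-strand gene had a summit after them (75%). So did 11 of 21 with no close neighbour (52.4%, interval 32.4 to 71.7). Of the operon-like genes behind genes of protein folding 9 of 32 had a summit (28.1%), behind translation factors 5 of 22 (22.7%), and behind chemoreceptors 1 of 216 (0.463%). Without the genes behind ribosomal protein or proteasome genes, 269 of 3302 operon-like genes had a summit (8.15%).

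**Figure D4:**
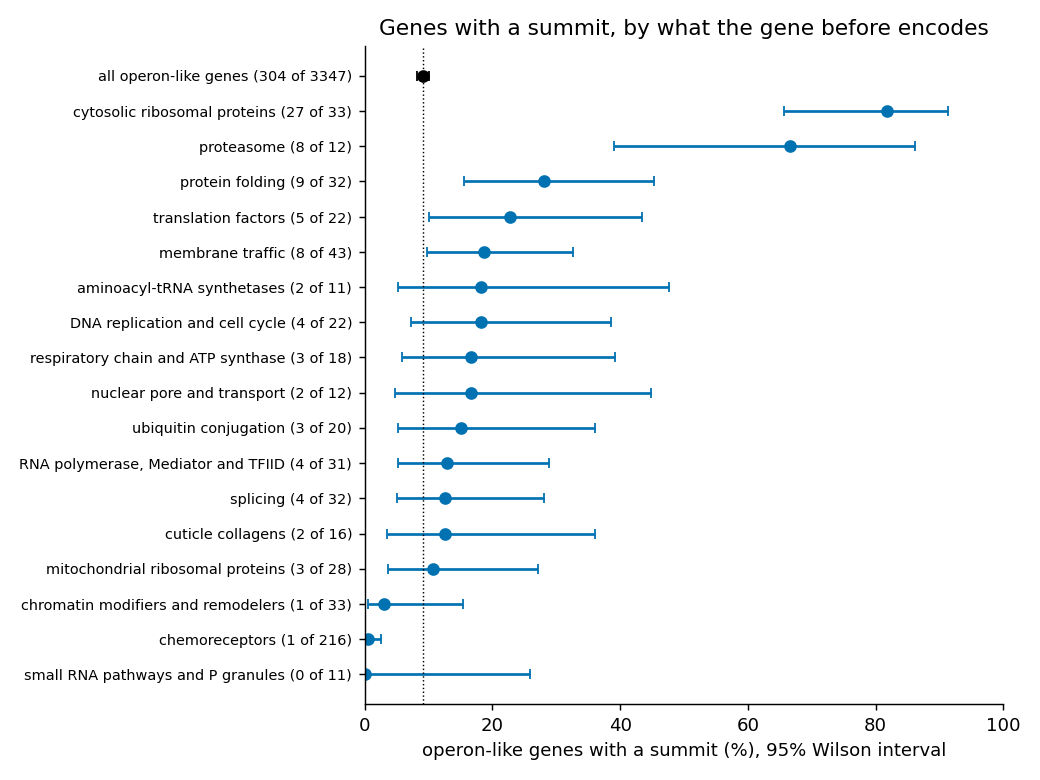
Percent of operon-like genes with a summit (x axis), grouped by what the gene before encodes, with 95% Wilson intervals for counting error, and counts in the labels. The dotted line marks all operon-like genes, 9.08%. Genes behind ribosomal protein genes (81.8%) and proteasome genes (66.7%) lie to the right of all other lists.

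Counted by their own function, proteasome genes and cytosolic ribosomal protein genes had the highest shares. Of 8 operon-like proteasome genes 5 had a summit (interval 30.6 to 86.3%): pas-1, with 136 (49.1 and 87.9 in the replicates), rpn-11, also with 136 (64.4 and 66.2), and pbs-5, rpn-10 and pbs-3. Among cytosolic ribosomal protein genes, of which only 8 had this spacing, 4 had a summit (21.5 to 78.5%). Those in rla-1 (221), rps-16 (199), rpl-16 (139) and rpl-27 (121) all lay inside the coding sequence. Of 13 ubiquitin conjugation genes 5 had one, led by the SUMO-conjugating enzyme gene ubc-9 (205, with 97.9 and 97.8 in replicates 1 and 2) and the cullin gene cul-4 (139). Of 15 respiratory chain genes 4 had one, led by the cytochrome c1 gene cyc-1 (169) and cyc-2.1. These shares rest on few genes, with intervals from 17.7 to 64.5% for ubiquitin conjugation and from 10.9 to 51.95% for the respiratory chain. Of all operon-like genes 9.08% had a summit. Among ribosomal protein genes without this spacing 28 of 71 had one (39.4%), inside the interval above, so their high share was not particular to this spacing. Without it the counts were 4 of 25 for the proteasome (16%), 6 of 45 for ubiquitin conjugation (13.3%) and 5 of 30 for the respiratory chain (16.7%).

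No other list had a larger share than 3 of 11 genes. For aminoacyl-tRNA synthetases it was 3 of 11, with fars-3 (136) and vars-1 (99.03) the strongest. In the list for the cell cycle and replication it was also 3 of 11, with hcp-1 of the kinetochore (214) ahead of the helicase gene mcm-4 (153). The mcm-4 summit lay 3516 bp past the outermost 5′ end, in the 3′ UTR. It was counted because an inner transcript start lay 350 bp upstream of it. Protein folding genes had 6 of 26, led by dnj-9 and the cyclophilin gene cyn-3 (136). Chromatin genes had 5 of 23, led by the histone methyltransferase genes set-4 (173) and set-2 (122). RNA polymerase and Mediator genes had 5 of 26, led by mdt-17 and rpac-19 (161 each). Without this spacing the counts of these lists were 14 of 69 (20.3%) and 4 of 37 (10.8%). Small RNA pathway genes had 2 of 13, the exonuclease gene eri-1 (106) and the germ granule helicase gene glh-1 (96.3). Translation factors had 1 of 7, eif-3.C, and mitochondrial ribosomal proteins 3 of 27, led by mrpl-32 and mrps-18.C (108). Splicing genes had 2 of 19, rsp-6 (180) and snrp-200 (177), and membrane traffic genes 4 of 40, led by vha-2 (157) and tbc-20 (109). The lists of cuticle collagens and chemoreceptors had 1 of 23 (col-85, 137) and 1 of 204 (srbc-58, 150.8). The nuclear pore and transport list had 0 of 6, with an interval up to 39.03%.

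Summits at several genes of a run were uncommon. A run is a series of same-strand genes each within 500 bp of the one before. Of 2432 autosomal runs, 279 had an operon-like summit, 22 at more than 1 gene and 2 at 3 genes or more. The run of C53H9.2, rpl-27, egl-30, C53H9.4, the emerin gene emr-1 and the neuropeptide gene nlp-12 had most, with 5 summits at 4 genes. These were at rpl-27 (121, with 49.5 and 71.9 in replicates 1 and 2), egl-30 (353, and a weaker one of 160 at an inner 5′ end), emr-1 (100.2, with 46.7 and 65.4) and nlp-12 (93.4, with 41.0 and 51.7). Those of emr-1 and nlp-12 were in the thresholded list of neither replicate. The next 4 runs had 3 summits each, and of these the run with summits at most genes and then the one with the strongest summit are given. The run that begins with sgo-1 had summits at rsp-6, an SR splicing factor gene (180), at imp-3 behind it (166) and at tag-322 behind that (102), as well as at sgo-1 itself. Its genes without one were ntp-1, C33H5.13, tag-321, sec-10 and rpap-3. Behind the chaperone gene hsp-90, C47E8.11 had summits of 150 and 79.2, and the next gene gasr-8 had 81.6.

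A summit at the first gene of a run, where the shared promoter of an operon would lie, was more common where a later gene had one. The first gene had a summit for 64 of the 304 operon-like genes with one (21.1%, interval 16.8 to 26.0) and for 202 of the 3043 without (6.64%, interval 5.81 to 7.58). For most operon-like genes with a summit the first gene therefore had none. By place in the run, 9.61% of genes in place 2, 6.97% in place 3 and 9.12% in later places had a summit, with overlapping intervals. By chromosome the share was lowest on V (4.99%) and highest on I (12.2%), and over all genes it was lowest on V (3.50%) and highest on III (7.88%).

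The bases before the 5′ end differed between genes with and without a summit at some spacings. AG just before the annotated 5′ end, as at a trans-splice acceptor, was present at 36.8% of operon-like genes and 25.5% of other autosomal genes. Of operon-like genes with a summit 50% had it (152 of 304, interval 44.4 to 55.6), and of those without 35.5% (33.8 to 37.2). Over 250 bp of spacing the shares were 47.7% (38.7 to 57.0) and 25.4% (23.0 to 28.0). At 51 to 100 bp they were 47.2% and 47.8%, and over 100 and up to 150 bp 68.4% and 57.1%, with overlapping intervals. Other autosomal genes with a summit had AG in 39.6% of cases, also above the 25.5% of all of them. The longer acceptor word TTTCAG stood before 24.0% of operon-like genes with a summit and 13.2% of those without.

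**Figure D5:**
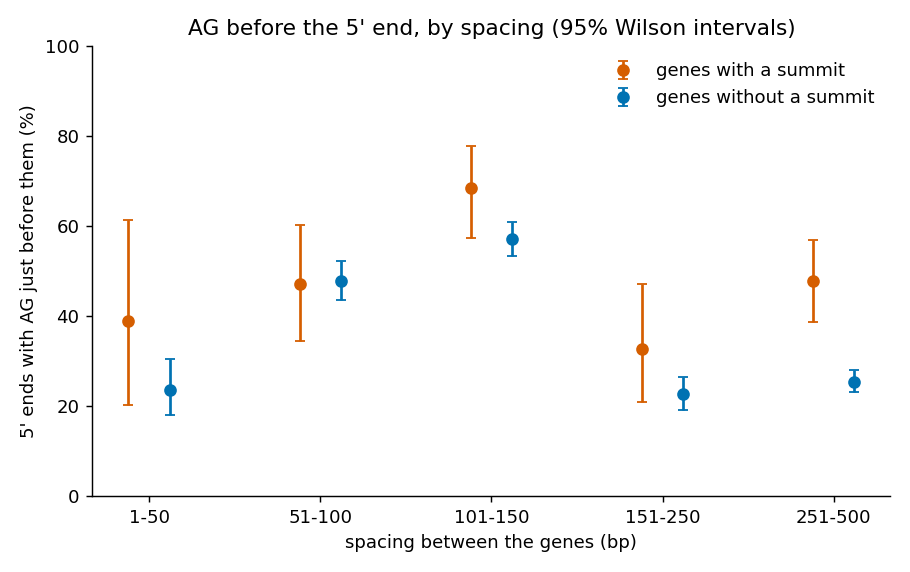
Percent of operon-like genes whose 5′ end directly follows AG (y axis), by spacing in bp (x axis), for genes with a summit (orange) and without (blue). Bars are 95% Wilson intervals. The intervals are apart over 250 bp (47.7% and 25.4%) and overlap in the other classes.

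The DNA around the summits was richer in G and C than windows of the same width centred on the gaps. The windows reaching 100 bp to either side of the summits had a mean GC content of 40.3% ± 6.44 (SD, n = 335 summits), beside 32.8% ± 5.62 in the middle of all 3347 gaps and 42.7% ± 7.42 at all 2183 autosomal summits. At gaps shorter than the window, the window also takes in parts of the genes. For spacings over 250 bp the means were 39.9% at the 120 summits and 33.9% in the middle of the 1298 gaps. Words like an E2F site were searched on both strands of these windows: TTCCCGC was found at 5.97% of the summits, TTGGCGC at 5.67%, TTCGCGC at 5.67% and TTGCCGC at 4.48%. At least 1 of the 4 was present at 18.5% of the summits, near the 16.9% of all autosomal summits and above the 6.57% of gap middles. It was 23.8% for summits in the gap (38 of 160) and 13.2% for those inside the gene (20 of 152), with overlapping intervals. The word GGCGCAT, chosen after it was seen in the printed gaps, was present at 10.6% of summits in the gap and 1.97% of those inside the gene, beside 1.46% of gap middles and 4.99% of all autosomal summits. The summits of C34C12.8 and fbxl-2, where the word was seen, are themselves among those counted in the gap, which raises that share. GGCGCAT can overlap TTGGCGC. CTGCGTCTC was present at 4.18% of the summits, 7.28% of all autosomal ones and 2.06% of gap middles. The GATA-type word CTGATAA was found at 1.49% of summits, 2.70% of all autosomal summits and 5.71% of gap middles. TTTTTTTT was found at 12.2% of summits, near the 12.5% of all autosomal summits, and at 26.6% of gap middles. The GC content of these windows differs too, and its part in the word counts was not tested.

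Fewer of the summits than of all autosomal summits lay near annotated small RNA genes. A tRNA, snRNA, snoRNA or miRNA gene lay within 200 bp of 17 summits (5.07%), beside 12.4% of all autosomal summits. By class, 6 were at tRNA, 4 at snRNA, 7 at snoRNA and 0 at miRNA genes. The 2 sets are unlike, since only 1075 of the 2183 autosomal summits lay near a protein-coding 5′ end. The share for other summits at gene starts was not counted. An opposite-strand 5′ end within 1000 bp was present at 6 summits, at 4 of the 304 genes (1.32%), near the 1.64% of all operon-like genes (55 of 3347). The spacing rule, which requires a gene of the same strand just upstream, keeps this share low. In 31 genes there were 2 summits. In 23 of these the summits stood 199 to 237 bp apart, with a median signal of 106 for the stronger and 18.1 for the weaker one, and all 21 summits with a signal below 40 had another within 250 bp. The median width of a peak was 360 bp. Without summits that lay within 250 bp of a stronger one the places were nearly the same: 77.1% inside the gene at 51 to 150 bp and 88.6% in the gap over 250 bp.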

How the data were processed

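Peaks on the ce11 build were called by the authors against a control alignment and ranked by the irreproducible discovery rate (IDR), per the accompanying text files. The aligner, the caller and the version of each were not given in the sources used here. For each peak, the deposited signal is the authors' strength relative to control, on a scale the files do not state, and was used only to rank and describe peaks. The deposited score is the authors' IDR score, from 830 to 1000 in the conservative list of 2482 peaks, which rests on both replicates. The thresholded lists of the replicates held 1495 and 1846 peaks, and their ranked lists 49388 and 90719. Read depth is unknown from these lists, and the ranked lists that pool both replicates were not used.

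Genes and transcripts came from Ensembl 115 on WBcel235, which is ce11. The 5′ end of a gene was its outermost one, and the nearest transcript 5′ end assigned each summit. A peak met another where they shared at least 1 bp, and replicate signals came from the met ranked peak. Intervals are 95% Wilson intervals for counting error. Genes and summits are not replicates, so no test was made. The summits, the 17 gene lists and the words searched were chosen with earlier results of these data known. Named genes are those of the 25 strongest summits, the 2 strongest of each list, those at the edges of the rule, those of the 3 runs with summits at most genes (ties by number of summits, then by the strongest) and those of the printed sequences. The gaps of the second printed set and the genes behind ribosomal protein and proteasome genes were chosen after their values were seen. The sequence of 1 gap of the first set is not reported here. The code was tested on simulated data, in Python 3.11.15 with pandas 2.3.3, numpy 2.4.6, matplotlib 3.10.9 and, for intervals, scipy 1.17.1. Alternatives included other lists, windows, spacings, signal limits and gene assignments.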

Additional observations from a re-analysis of the deposited data

How the results depend on the processing

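The share of operon-like genes with a summit (9.08%) was 10.6% in the larger list, 4.75% with summits at or above the median signal, 7.74% with a window of 250 bp, 7.61% with spacings up to 1000 bp, and 5.35 to 6.87% in the list of 1 replicate. The share of summits in the gap was 57.1% above the median signal, 41.99% with a window of 1000 bp, 25.1% with spacings up to 250 bp and 55.8% up to 1000 bp. The median distance from the 5′ end was -12.5 bp with a window of 250 bp and -83 bp with spacings up to 1000 bp. It reversed to 24 bp with spacings up to 250 bp, where the long gaps are left out. Peaks met in both replicates were 34.8% in the larger list, 74.2% above the median signal and 33.5% with spacings up to 250 bp. The median signal was 150.8 above the median and 99.03 with spacings up to 250 bp, and 58.4 to 73.5 in the lists of 1 replicate. The median spacing was 223, 109 and 272 bp above the median signal and with spacings up to 250 and 1000 bp, and 168 to 212 bp in the lists of 1 replicate. In those lists 57.6 to 75.8% of genes behind ribosomal protein genes had a summit, 63.6 to 76.5% of summits at 51 to 150 bp lay inside the gene, and the distance from the 3′ end was 160 to 178 bp. That distance was 192 bp with spacings up to 1000 bp. In all, 106 of 134 values stayed within their interval or spread. Some of these could not move, such as the inside share at 51 to 150 bp under spacing limits of 250 and 1000 bp. The tally is therefore not a measure of stability. No paired analysis was possible because there is 1 group. With 2 replicates, unknown depth and no measure of transcription, weak summits missing from a list cannot be read as absent, and shared transcripts were not identified.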
